A study of Homo sapiens with 9 samples.

Results

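The enzymes described here make, break and re-use sphingosine-1-phosphate (S1P) and ceramide in T47D, a human breast cancer cell line responsive to progestins through its progesterone receptor. They were chosen by gene symbol: both S1P phosphatases (SGPP1, SGPP2), both sphingosine kinases (SPHK1, SPHK2), the S1P lyase SGPL1 and the ceramide synthases CERS2, CERS4, CERS5 and CERS6. Of these 9 genes, 8 were measured, each by 1 probe set of the Affymetrix human gene array, out of 18417 genes named by a probe set of their own. SPHK2 had no probe set under its name in the annotation used here and was not analysed. SGPP2 was picked because its level in progestin-treated arrays lay far above that in vehicle arrays, so its values against vehicle are a description and carry no test. The other members were added by function, with earlier results of these data known.

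All 9 arrays came from T47D cells that carry the ecotropic retrovirus receptor and the retroviral vector pHUSH, whose hairpin RNA against ELF5 is switched on by doxycycline, and were kept under puromycin. ELF5 is an ETS transcription factor of the mammary secretory lineage. The groups were ORG2058, a synthetic progestin that the labels call progesterone, at 10 nM with 0.1 µg/ml doxycycline for 4 days, ORG2058 at 10 nM for 4 days without doxycycline, and ethanol vehicle, with 3 arrays each. The labels describe each sample as pooled from wells. They do not say whether the line is a clone, and give the vehicle cells no time in culture. No array had doxycycline without progestin or a control hairpin, so an effect of doxycycline itself and one of the hairpin cannot be told apart. The design text calls the replicates independent experiments. In bulk RNA, fewer cells of a kind and less RNA per cell cannot be told apart.

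Sphingolipids are built on sphingosine-like bases. Ceramide synthases join such a base to a fatty acid to give ceramide, and each synthase prefers fatty acids of certain lengths. Ceramidases free sphingosine from ceramide, sphingosine kinases turn it into S1P, phosphatases turn S1P back into sphingosine, and the lyase SGPL1 destroys S1P for good. Inside the cell ceramide is known for its links to growth arrest and cell death. Outside the cell S1P acts as a signal through its own receptors.

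Values are the log2 expression values that the authors deposited, 1 per probe set and array. A difference of 1 on that scale is a doubling. Changes, standard errors (SE) and 95% intervals come from limma, fitted to all 9 arrays with 1 mean per group. A gene was called higher or lower when its Benjamini-Hochberg adjusted p over 21214 probe sets was under 0.05. Very low signals are unstable on this scale: a linear signal near 0 gives a large negative log2 value. For probe sets that fell below 4 (a linear signal of 16) on any array, 16 was therefore added to the linear signal before taking log2. Of the 8 members this touched SGPP2 alone.

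The labels were checked first. ELF5, the target of the hairpin, was at 10.42 ± 0.0608 with progestin plus doxycycline, 11.28 ± 0.0455 with progestin and 10.17 ± 0.109 with vehicle (log2, SD, n = 3 each). Its adjusted p by limma was 0.029 for progestin plus doxycycline against progestin (log2 change -0.87) and 2.06e-05 for progestin against vehicle (1.11). The drop with doxycycline lost its call in 8 of the 9 fits that left out 1 array (change -0.89 to -0.83, adjusted p 0.0263 to 0.149). All 9 luminal markers were clearly measured, with group means from 8.38 to 13.17, among them the keratins KRT8, KRT18 and KRT19. Several of them moved for progestin against vehicle: PGR (-2.28, adjusted p = 2.96e-07), ESR1 (-0.50, adjusted p = 0.00196) and GATA3 (-0.51, adjusted p = 0.00161) were called lower and KRT19 (0.46, adjusted p = 0.000838) higher. The other luminal markers were not called. Of all probe sets 29.1% were called in that comparison (13.4% higher and 15.7% lower). No marker list of another cell type was at 0. Fibroblast markers (4 genes) summed to a log2 signal of 8.91 to 9.11 in progestin plus doxycycline arrays, 8.75 to 8.93 in progestin arrays and 9.04 to 9.24 in vehicle arrays. The brightest of them was COL1A1, with group means of 8.17 to 8.60. Those of COL1A2, COL3A1 and PDGFRB were 4.95 to 6.23. Endothelial markers (3 genes) summed to 9.48 to 9.65 in progestin plus doxycycline arrays, 9.49 to 9.70 in progestin arrays and 9.25 to 9.39 in vehicle arrays. Most of that sum came from CDH5, with group means of 9.08 to 9.38. Those of PECAM1 and VWF were 5.37 to 6.10. Basal markers (3 genes) summed to 8.83 to 9.01 in progestin plus doxycycline arrays, 8.89 to 9.07 in progestin arrays and 8.86 to 9.05 in vehicle arrays. Leukocyte markers (3 genes) summed to 7.13 to 7.53 with progestin plus doxycycline, 7.55 to 7.57 with progestin and 7.31 to 7.62 with vehicle. Of these 13 genes, CDH5, PECAM1 and KRT5 were called higher and COL1A1 and ACTA2 lower for progestin against vehicle, beside the same 29.1% of all probe sets. The part of these shifts in the results was not tested.

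The sequences around the starts of SGPP2 are shown because this gene had the largest change of the set. RefSeq (GRCh38.p14) gives it 2 starts on chromosome 2, on the plus strand. Each window runs from 250 bases before to 50 bases after a start, 5′ to 3′. Capitals mark matches to the motif spellings searched, and lower case does not exclude other spellings. The window of CERS6, the other member that was higher with progestin, follows.
SGPP2, upstream start, chr2:222423738-222424037: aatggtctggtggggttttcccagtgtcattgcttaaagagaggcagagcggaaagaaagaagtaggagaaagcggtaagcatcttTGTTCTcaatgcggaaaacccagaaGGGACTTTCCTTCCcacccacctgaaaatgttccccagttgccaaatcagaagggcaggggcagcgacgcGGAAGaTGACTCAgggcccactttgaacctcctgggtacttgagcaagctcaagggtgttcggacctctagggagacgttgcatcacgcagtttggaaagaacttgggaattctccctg
SGPP2, downstream start, chr2:222424293-222424592: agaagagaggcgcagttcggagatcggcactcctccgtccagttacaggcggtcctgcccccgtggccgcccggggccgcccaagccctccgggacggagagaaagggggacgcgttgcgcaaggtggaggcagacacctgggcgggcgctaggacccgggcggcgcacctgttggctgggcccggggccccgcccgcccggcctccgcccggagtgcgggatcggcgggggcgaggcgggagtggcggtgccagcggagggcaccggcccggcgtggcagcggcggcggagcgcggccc
CERS6, chr2:168456022-168456321, plus strand: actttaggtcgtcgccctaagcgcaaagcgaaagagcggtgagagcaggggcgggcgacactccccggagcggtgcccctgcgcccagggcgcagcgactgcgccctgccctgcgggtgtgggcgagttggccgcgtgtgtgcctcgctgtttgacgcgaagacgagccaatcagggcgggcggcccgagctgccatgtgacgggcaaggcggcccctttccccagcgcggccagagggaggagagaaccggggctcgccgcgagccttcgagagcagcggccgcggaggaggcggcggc

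The motifs were searched on both strands, N standing for any base, and were chosen with the SGPP2 sequence in view. The NF-kappaB site was searched as 1 exact spelling without N, and other spellings of it were not searched. That spelling is in 67 of 35116 RefSeq windows of the same length (0.191%). This is not the share of windows with any NF-kappaB site, which was not counted. The upstream SGPP2 window held that spelling at bases 112 to 121. It also held 1 hormone receptor half-site TGTTCT (bases 87 to 92; in 14.8% of windows) and 1 AP-1 site TGANTCA (bases 188 to 194; in 7.71% of windows). The ETS core GGAAG occurred at bases 121 to 125 on the minus strand and at bases 182 to 186 on the plus strand. That core is in 71.9% of windows, and its first copy overlaps the NF-kappaB site by 1 base, so that the run of capitals there goes on to base 125. The hormone response core ACANNNTGT (5.37% of windows), the interferon-stimulated response core, a pair of GAAA blocks 2 bases apart (3.57%), and the STAT core TTCNNNGAA (7.66%) had 0 matches there. The downstream SGPP2 window and the CERS6 window had 0 matches to any of the 7 motifs. These matches are letters in a window, and the arrays do not show which start was used. Of the 9 members, 6 had a window in the RefSeq table.

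SGPP2, the S1P phosphatase of the endoplasmic reticulum that is inducible in other settings, was near the floor of the arrays in vehicle cells and well measured in all progestin-treated cells. Its linear signal was 618, 615 and 525 in progestin plus doxycycline arrays, 528, 472 and 551 in progestin arrays, and 0.00681, 1.12 and 12.6 in vehicle arrays. The lowest progestin array was 37.4 times as bright as the brightest vehicle array, and the lowest progestin plus doxycycline array 41.6 times. On the log2 scale with 16 added, SGPP2 averaged 9.23 ± 0.131 with progestin plus doxycycline, 9.06 ± 0.111 with progestin and 4.31 ± 0.458 with vehicle (SD, n = 3 each). The groups treated with progestin overlapped each other, and neither overlapped the vehicle arrays.

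On that scale the difference between progestin and vehicle was 4.74. Since the vehicle signals lay at the floor, its size depended on the amount added. It was 6.22 with 4 added, 3.09 with 64 added and 10.13 on the deposited scale, where the vehicle SD was 5.54. Vehicle replicate 3 was the brightest of the vehicle arrays, and without it the difference was 5.01. Progestin plus doxycycline differed from the same vehicle arrays by 4.92.

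**Figure D1:**
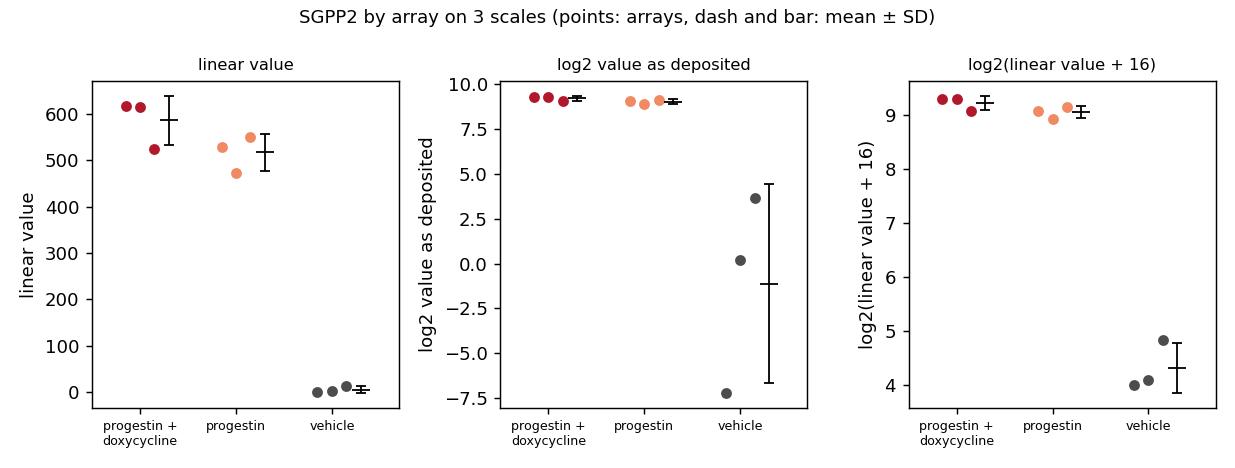
SGPP2 on each of the 9 arrays as linear signal (left), log2 value as deposited (middle) and log2 of the linear signal with 16 added (right); points are arrays, the dash and bar the mean ± SD of 3 arrays. On all 3 scales both groups with progestin lie above the vehicle arrays, while the vehicle arrays spread widely on the deposited scale (SD 5.54) and less with 16 added (SD 0.458, against 0.131 and 0.111 in the groups with progestin plus doxycycline and with progestin).

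Adding doxycycline, and with it the ELF5 hairpin, was compared with progestin alone. The change of SGPP2 was 0.17 on the scale with 16 added (SE 0.18, 95% interval -0.23 to 0.58, limma adjusted p = 0.721). The progestin arrays took part in the choice of SGPP2, so this comparison is not fully independent of it. The SE includes the spread of the vehicle arrays. With only the groups compared in the fit, the change was the same with an SE of 0.098 and an adjusted p of 0.454. The interval leaves room for a fall of 0.23 or a rise of 0.58.

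The genes whose pattern over the 9 arrays came closest to that of SGPP2 were sought with a root mean square difference, each gene taken relative to its own vehicle mean on the scale with 16 added. The closest was TRIM22, an antiviral protein (0.244), followed by OAS1, an enzyme of the antiviral response (0.306), the water and glycerol channel AQP3 (0.332), OAS2 (0.342) and GNMT, a glycine methyltransferase (0.38). Their differences between progestin and vehicle were 4.72 for TRIM22, 4.70 for OAS1, 4.69 for AQP3, 4.65 for OAS2 and 5.20 for GNMT. The same 5 genes differed between progestin plus doxycycline and progestin by -0.08 to 0.21. All 9 arrays entered the distance, so both sets of differences lie near those of SGPP2 by the choice itself. They are a description and no separate result about these genes. The choice of measure mattered: with 64 added, or with Pearson correlation in place of the distance, TRIM22 was the 1 gene of the 5 that remained.

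SGPP1, the other S1P phosphatase, showed no called change. It was at 8.52, 8.67 and 8.69 in progestin plus doxycycline arrays, 8.46, 8.31 and 8.59 in progestin arrays, and 8.69, 8.75 and 8.54 in vehicle arrays. The 3 groups overlapped. Progestin against vehicle gave -0.21 (SE 0.10, 95% interval -0.43 to 0.02, adjusted p = 0.165), and it was called lower with array weights (-0.25, adjusted p = 0.0208). Progestin plus doxycycline against progestin gave 0.17 (95% interval -0.06 to 0.40, adjusted p = 0.488).

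SPHK1, the kinase that makes S1P near the cell membrane, lay at 6.87, 6.71 and 6.87 in progestin plus doxycycline arrays, 6.87, 6.54 and 7.05 in progestin arrays, and 6.70, 6.94 and 6.97 in vehicle arrays. The progestin arrays spanned the range of all others. The change was -0.05 for progestin against vehicle (95% interval -0.37 to 0.26, adjusted p = 0.82) and -0.01 for progestin plus doxycycline against progestin (95% interval -0.32 to 0.31, adjusted p = 0.994). Its sign against vehicle turned without progestin replicate 2 (0.09) and with array weights (0.08).

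SGPL1, which cleaves S1P irreversibly, was at 8.98, 9.04 and 8.84 in progestin plus doxycycline arrays, 9.01, 8.77 and 8.86 in progestin arrays, and 8.81, 8.73 and 8.50 in vehicle arrays. The progestin arrays overlapped the vehicle arrays, whereas the arrays with doxycycline lay just above them. Of all probe sets, 41.8% were separate from vehicle with progestin plus doxycycline. The change was 0.20 for progestin against vehicle (95% interval -0.05 to 0.44, adjusted p = 0.211). For progestin plus doxycycline against vehicle it was 0.27 (95% interval 0.03 to 0.52, adjusted p = 0.0954), and it was called with a variance trend and robust estimation (adjusted p = 0.0252) and with 64 added (0.0353).

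Of the 7 measured members other than SGPP2, progestin against vehicle called 1 higher and 1 lower, where 29.1% of all probe sets were called (13.4% higher and 15.7% lower, and 39% at an unadjusted p under 0.05). Their count, 2 of 7, does not exceed that background. Their median change was -0.05, against 0.02 for all probe sets. The 2 called genes are both ceramide synthases and went in opposite directions.

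CERS6, the synthase that prefers long-chain fatty acids, was higher. It lay at 10.65, 10.69 and 10.53 in progestin plus doxycycline arrays, 10.41, 10.45 and 10.64 in progestin arrays, and 10.10, 10.20 and 10.00 in vehicle arrays. Every array with progestin lay above every vehicle array, a separation from vehicle that 41.8% of all probe sets showed with progestin plus doxycycline and 42.3% with progestin. Progestin against vehicle gave a log2 change of 0.40, or 1.32-fold (SE 0.09, 95% interval 0.19 to 0.61, adjusted p = 0.0112).

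CERS2, the synthase of very-long-chain ceramides, was lower. It lay at 10.64, 10.66 and 10.55 in progestin plus doxycycline arrays, 10.65, 10.57 and 10.69 in progestin arrays, and 11.08, 11.05 and 10.95 in vehicle arrays. Every array with progestin lay below every vehicle array. Of all probe sets, 41.8% were separate from vehicle with progestin plus doxycycline and 42.3% with progestin. Progestin against vehicle gave -0.39, a 1.31-fold fall (SE 0.07, 95% interval -0.55 to -0.23, adjusted p = 0.004). Both calls held in all 20 alternative fits, with changes of 0.33 to 0.45 for CERS6 and -0.43 to -0.32 for CERS2.

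CERS4, another synthase of the family, was at 8.01, 7.97 and 7.90 in progestin plus doxycycline arrays, 8.02, 7.83 and 8.35 in progestin arrays, and 8.40, 8.44 and 8.12 in vehicle arrays. Progestin replicate 3 lay among the vehicle arrays, and the others with progestin lay below them. The change was -0.25 for progestin against vehicle (95% interval -0.58 to 0.08, adjusted p = 0.239; called with array weights at -0.36, adjusted p = 0.0128). For progestin plus doxycycline against vehicle it was -0.36 (95% interval -0.68 to -0.03, adjusted p = 0.102), and it was called in 5 of 20 alternative fits, among them the fit without progestin replicate 3 (adjusted p = 0.0447).

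CERS5, a synthase of long-chain ceramides, was at 8.80, 8.89 and 8.71 in progestin plus doxycycline arrays, 8.81, 8.71 and 9.05 in progestin arrays, and 8.90, 8.96 and 8.77 in vehicle arrays. The groups overlapped throughout. The change for progestin against vehicle was -0.02 (95% interval -0.26 to 0.22, adjusted p = 0.92), a value whose sign turned with quantile normalization (0.0022) and without vehicle replicate 2, progestin replicate 1 or progestin replicate 2 (0.023, 0.0055 and 0.054).

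**Figure D2:**
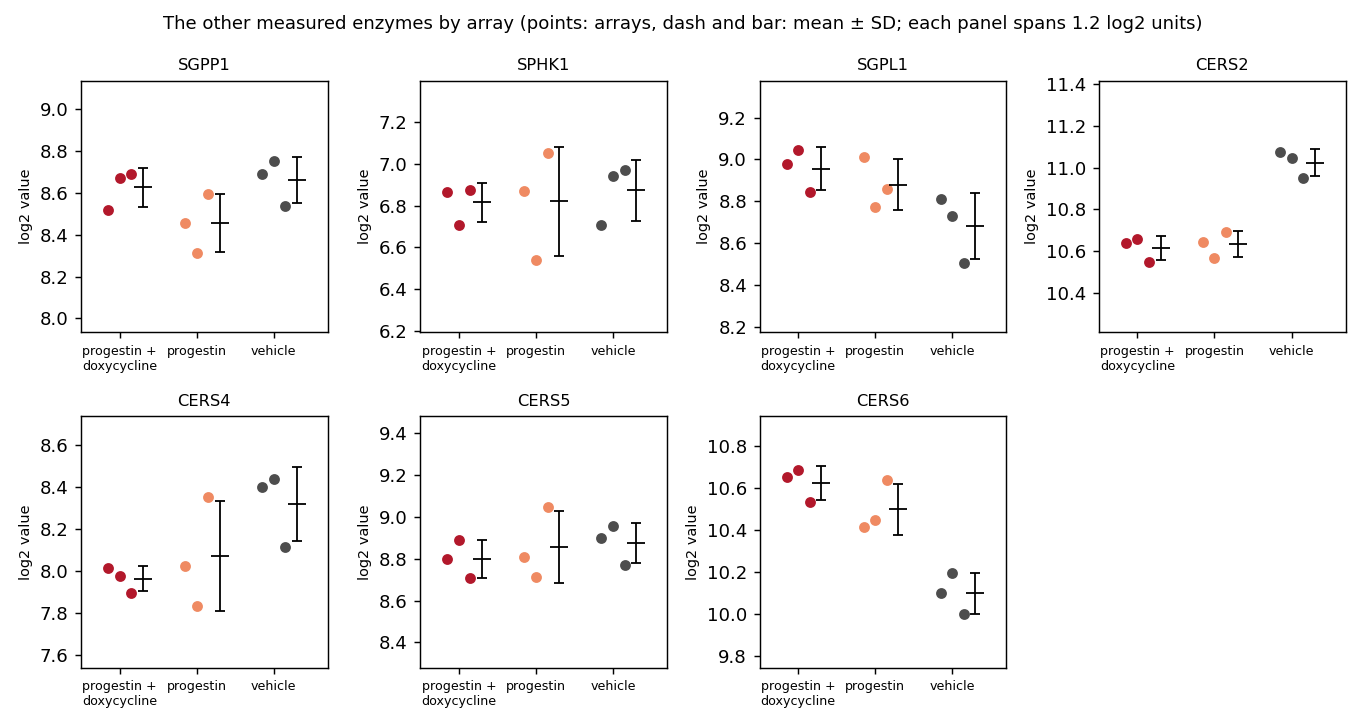
Log2 value as deposited of the 7 other measured enzymes on each of the 9 arrays; points are arrays, the dash and bar the mean ± SD of 3 arrays. For CERS6 (10.41 to 10.69 with progestin) and CERS2 (10.55 to 10.69 with progestin) the arrays with progestin, with or without doxycycline, are clear of the vehicle arrays, and for SGPP1, SPHK1 and CERS5 all groups overlap. Of all probe sets, 42.3% (progestin) and 41.8% (progestin plus doxycycline) were clear of the vehicle arrays.

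Progestin plus doxycycline against progestin called 0 of the 8 members by limma, at a background of 0.0189% of probe sets called (4 of 21214, with 0.00943% higher and 0.00943% lower). At an unadjusted p under 0.05, 14.1% of all probe sets passed. SGPP2 is counted among the 8, though its comparison is not fully independent of its choice. The changes of the 7 members other than SGPP2 ran from -0.11 for CERS4 to 0.17 for SGPP1. Their groups overlapped in every case, where 21.2% of all probe sets showed no overlap. The interval for CERS2 was the tightest, at -0.18 to 0.14 around a change of -0.02. CERS6 had a change of 0.13 (95% interval -0.08 to 0.33, adjusted p = 0.584). An adjusted p above the threshold does not show that these levels were the same.

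Progestin plus doxycycline was also set against the vehicle arrays, which it shares with the first comparison. CERS6 was 0.53 higher, or 1.44-fold (SE 0.09, adjusted p = 0.00281), and CERS2 was at -0.41, or 1.33-fold lower (SE 0.07, adjusted p = 0.00305). These were again the called members other than SGPP2, 1 higher and 1 lower of 7, against 15.6% and 12.6% of all probe sets (37.1% passed an unadjusted p under 0.05). SGPP1, SPHK1 and CERS5 had changes of -0.03, -0.06 and -0.07, and their groups overlapped.

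**Figure D3:**
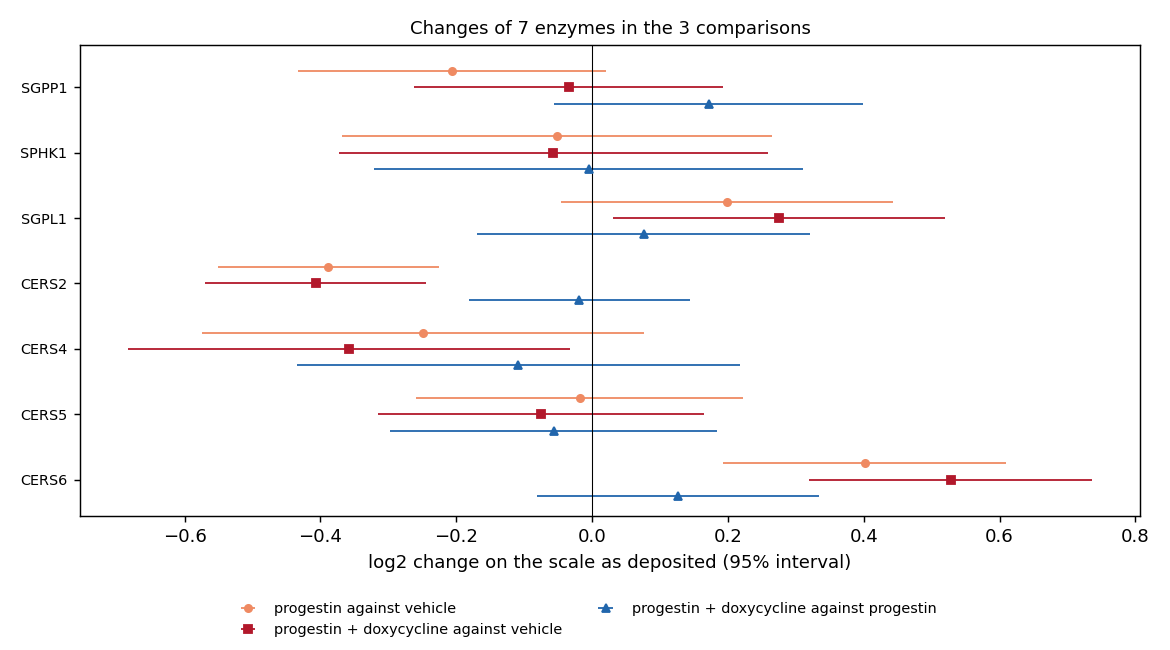
Log2 changes with 95% intervals of the 7 measured enzymes other than SGPP2 for progestin against vehicle (circles), progestin plus doxycycline against vehicle (squares) and progestin plus doxycycline against progestin (triangles). The intervals of CERS2 and CERS6 against vehicle are clear of 0 in both comparisons (-0.39 and -0.41 for CERS2, 0.40 and 0.53 for CERS6), and all intervals of the third comparison include 0.

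The rest of the sphingolipid pathway was described from a list of 53 genes, and 48 of them had a probe set of their own. The others were not analysed here. Progestin against vehicle called 13 of the 48 higher and 8 lower, or 21 in all, and 27 were not called. The median change was 0.10, against 0.02 for all probe sets. Over all probe sets 29.1% were called, a background that includes dim probe sets, while 0 of the 48 were dim. Without the dimmest probe sets, 24 of the 45 list genes left were called, beside 41.1% of all probe sets left. The difference was not tested.

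Among genes of export and transport of S1P, SPNS2, the transporter that releases S1P from cells, was higher. It was at 8.45, 8.44 and 8.34 in progestin plus doxycycline arrays, 8.58, 8.42 and 8.60 in progestin arrays, and 7.17, 7.12 and 7.10 in vehicle arrays. All arrays with progestin lay above all vehicle arrays, by a log2 change of 1.41, or 2.65-fold, for progestin (SE 0.07, adjusted p = 4.7e-06). Such a separation from vehicle was shown by 42.3% of all probe sets with progestin and 41.8% with progestin plus doxycycline. The ATP-driven transporter ABCC1, which can also carry S1P out of cells, was lower with progestin, at 7.91, 7.59 and 7.90, against 8.27, 8.32 and 8.12 in vehicle arrays (-0.44, SE 0.10, adjusted p = 0.0128). With progestin plus doxycycline it was at 8.28, 8.31 and 8.26, within the range of the vehicle arrays.

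None of the 4 measured S1P receptors was called in any of the 3 comparisons. Of all probe sets, 29.1% were called for progestin and 28.2% for progestin plus doxycycline, each against vehicle. For progestin plus doxycycline against progestin the share was 0.0189%. Whether the receptors differ from these shares was not tested. The changes of the 4 receptors with progestin ran from -0.30 to 0.14, and with doxycycline added to progestin from -0.12 to 0.26. The 4 genes of other routes of S1P removal (the lipid phosphate phosphatases PLPP1, PLPP2 and PLPP3, and ALDH3A2, which oxidizes a product of the lyase) had changes of -0.16 to 0.12 with progestin. In that comparison 0 of them were called, beside 29.1% of all probe sets.

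Of the 4 measured ceramidases, which free sphingosine from ceramide, ACER3 was lower. It was at 7.70, 7.87 and 7.63 in progestin plus doxycycline arrays, 7.47, 7.59 and 7.67 in progestin arrays, and 9.01, 9.09 and 8.88 in vehicle arrays. The progestin and vehicle arrays were far apart, at a log2 change of -1.41, or 2.66-fold (SE 0.10, adjusted p = 1.79e-05). ASAH1, the lysosomal acid ceramidase, was higher by 0.28 (adjusted p = 0.0164), a call lost without progestin replicate 1 (adjusted p = 0.0648) or progestin replicate 2 (0.0525).

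De novo synthesis had 3 genes called higher and 2 lower of 8, where 13.4% of all probe sets were higher and 15.7% lower. The 2 desaturases that finish ceramide were among them. DEGS1 was at 9.13, 9.16 and 9.10 in progestin plus doxycycline arrays, 8.78, 8.79 and 8.79 in progestin arrays, and 7.89, 8.12 and 7.84 in vehicle arrays. The 3 groups were in 3 separate ranges, and progestin against vehicle gave 0.84 (SE 0.08, adjusted p = 0.000141). DEGS2, whose product also adds a hydroxyl group, rose by 0.89 (SE 0.09, adjusted p = 0.000145), and SPTLC2, a catalytic subunit of the first enzyme of the pathway, by 0.41 (SE 0.09, adjusted p = 0.0102). SPTSSB, a small subunit of the same enzyme, fell by 0.38 (adjusted p = 0.003), and the reductase KDSR fell by 0.38 (adjusted p = 0.0296). The KDSR call was lost in the fits without vehicle replicate 1 or 2 or without progestin replicate 1 or 2 (adjusted p up to 0.0991) and with only the 2 groups in the fit (0.0663). Of the ORMDL proteins, which hold the first enzyme back, ORMDL3 rose by 0.52 (adjusted p = 0.00161) and the other two were not called.

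Genes that use ceramide went both ways, 3 higher and 2 lower of 11 (13.4% and 15.7% of all probe sets). CERT1, which carries ceramide from the endoplasmic reticulum to the Golgi, rose by 0.60 (SE 0.07, adjusted p = 0.00035), the ceramide kinase CERK by 0.64 (SE 0.07, adjusted p = 0.000248) and the glucosylceramide synthase UGCG by 0.53 (SE 0.10, adjusted p = 0.00436). The sphingomyelin synthase SGMS1 was at -0.56 (SE 0.08, adjusted p = 0.00105) and A4GALT, which makes globotriaosylceramide, at -0.997 (SE 0.17, adjusted p = 0.00269).

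Genes listed under sphingolipid breakdown to ceramide had 4 called higher and 2 lower of 9, beside 13.4% and 15.7% of all probe sets. The activity of these enzymes was not measured. SMPDL3A, named for its likeness to acid sphingomyelinase but known to split nucleotides, is among the 4 and had the largest change. It was at 6.80, 6.92 and 6.62 in progestin plus doxycycline arrays, 7.09, 6.99 and 6.92 in progestin arrays, and 4.71, 4.72 and 4.58 in vehicle arrays. Progestin against vehicle gave 2.33, or 5.03-fold (SE 0.10, adjusted p = 1.27e-06), and 1.10 with 64 added to the linear signal. The acid sphingomyelinase SMPD1 rose by 0.64 (adjusted p = 0.00628) and SMPDL3B by 0.61 (adjusted p = 0.00323), while the neutral sphingomyelinases SMPD3 and SMPD4 were at -0.51 (adjusted p = 0.0106) and -0.68 (adjusted p = 0.00167). PSAP, the precursor of the saposins that help lysosomal enzymes, was called at 0.26 (adjusted p = 0.0321). That call was lost in 10 of 20 alternatives, 7 of them fits without 1 array (adjusted p up to 0.0925), with the same direction in each.

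**Figure D4:**
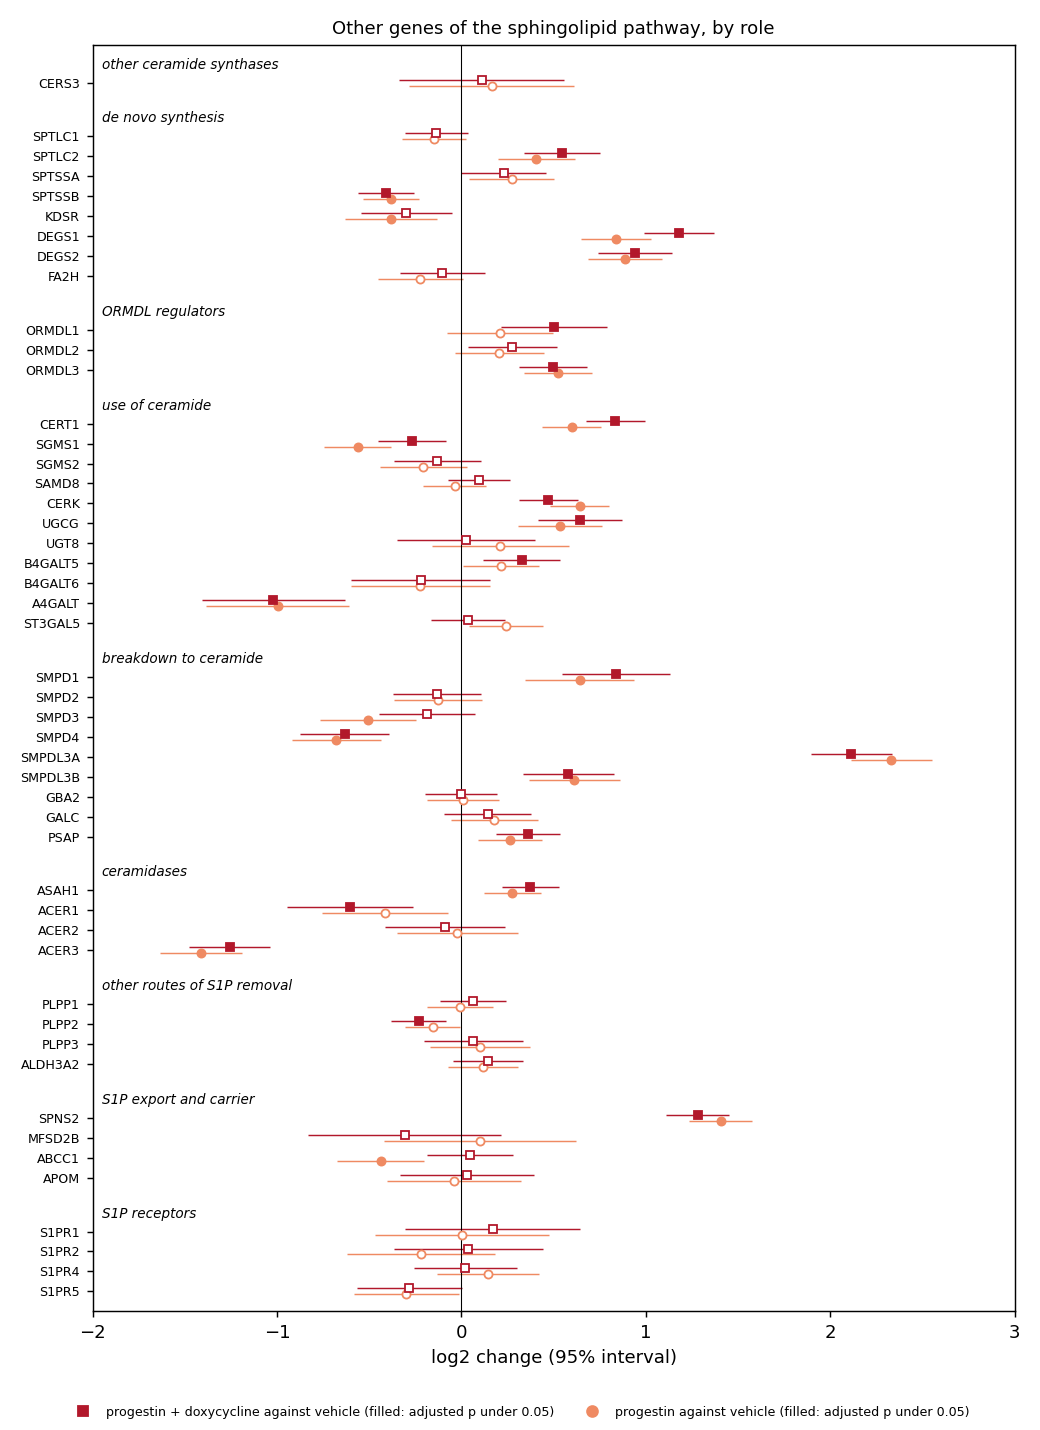
Log2 changes with 95% intervals of the 48 other measured genes of the sphingolipid pathway, grouped by role, for progestin plus doxycycline against vehicle (squares) and progestin against vehicle (circles); filled symbols have an adjusted p under 0.05. SMPDL3A (2.33), SPNS2 (1.41) and ACER3 (-1.41) with progestin lie farthest from 0, and the changes of the 4 receptors stay between -0.30 and 0.17.

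With doxycycline added to progestin, limma called 0 of the 48 list genes, beside 0.0189% of all probe sets, and their median change was 0.04, against 0.02 for all probe sets. The smallest p values belonged to ABCC1 (0.48, SE 0.10, adjusted p = 0.132) and DEGS1 (0.34, SE 0.08, adjusted p = 0.16). The groups did not overlap for either gene, which held for 21.2% of all probe sets in this comparison. Both were called higher with a variance trend and robust estimation (adjusted p = 0.0118 for ABCC1 and 0.0353 for DEGS1) and with 64 added (0.019 for ABCC1 and 0.0328 for DEGS1).

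Set against vehicle, progestin plus doxycycline called 15 of the 48 genes higher and 7 lower. Of all probe sets 28.2% were called in this comparison (15.6% higher and 12.6% lower), a background that includes dim probe sets. Without the dimmest probe sets, 23 of the 45 list genes left were called, beside 39.4% of all probe sets left. The difference was not tested. SPNS2 was 1.28 higher (adjusted p = 6.57e-06), SMPDL3A 2.11 higher (adjusted p = 1.8e-06) and DEGS1 1.18 higher (adjusted p = 1.78e-05), and ACER3 was at -1.26 (adjusted p = 2.99e-05). DEGS2 (0.94), SMPD1 (0.84), CERT1 (0.83), UGCG (0.65), SMPDL3B (0.58), SPTLC2 (0.55), ORMDL3 (0.50), CERK (0.47), ASAH1 (0.37) and PSAP (0.36) were also called higher, and A4GALT (-1.02), SMPD4 (-0.63) and SPTSSB (-0.41) lower. The remaining calls were lost in some of the 20 alternatives: ORMDL1 (0.50) in 3, ACER1 (-0.60) in 3, B4GALT5 (0.33) in 6, PLPP2 (-0.23) in 7 and SGMS1 (-0.27) in 9, all among them without vehicle replicate 1. ABCC1 was at 0.05 (95% interval -0.19 to 0.28, adjusted p = 0.798), where progestin without doxycycline had -0.44.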

How the data were processed

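RNA from 9 samples was hybridised to Affymetrix human gene arrays, 3 per group by title. Each probe set has 1 log2 value per array, as deposited. Of software, the submitters' processing notes list limma, PLIER, Affymetrix Expression Console and Affymetrix Power Tools, without saying what each did. Background correction and normalization are not given in the sources used here, and the log2 scale was read from the values. Array medians of the tested probe sets lay between 7.19 and 7.28. Of 33297 probe sets, 21214 had a gene symbol in the platform annotation (19460 a single one) and were tested. Of the single-symbol probe sets 19429 matched RefSeq (GRCh38.p14, used for names and promoter windows), which changed 0 symbols.

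Tests used limma 3.58.1 in R 4.3.3 (lmFit, eBayes) with 1 mean per group and Benjamini-Hochberg adjustment. The fit was also run on simulated data. The changes planted there were larger than those of CERS2 and CERS6 and lay in probe sets that were not dim. That run therefore does not bear on those calls or on SGPP2. The 2720 probe sets below log2 4 on any array took their values and calls from the same fit after adding 16 to the linear value. The members and lists were chosen with earlier results of these data known. All members were named, as were pathway genes past the threshold in each comparison, the 2 smallest p where none passed, and the 5 genes closest in pattern to SGPP2. For genes with several probe sets, the one with the highest mean was used. No permutation p is given, since 0.1 is the smallest that exact enumeration allows for 3 arrays against 3. The number of arrays limits the precision. Alternatives were a replicate block, normalization, a filter on dim probe sets, variance models, array weights, the amount added before log2, fits of only the groups compared and leaving out each array. The deposited scale for all probe sets was added after seeing the data.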

Additional observations from a re-analysis of the deposited data

How the results depend on the processing

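Of the 22 member results with a test, 10 kept their direction and side of the threshold in all 20 alternatives, among them CERS2 and CERS6 against vehicle in both comparisons. The cause of the other shifts was not tested. The 22 include SGPP2 for progestin plus doxycycline against progestin, a comparison not fully independent of its choice. For SGPP2, progestin minus vehicle was 6.22 with 4 added, 3.09 with 64 added and 10.13 as deposited, and progestin plus doxycycline minus vehicle was 6.40, 3.25 and 10.31. Array weights called SGPP1 (-0.25) and CERS4 (-0.36) lower with progestin. For progestin plus doxycycline against vehicle SGPL1 was called with a variance trend (0.27) and 64 added (0.24), and CERS4 with quantile normalization (-0.40), a variance trend (-0.36), array weights (-0.42) and 64 added (-0.29). Signs turned for members near 0. SPHK1 was at 0.080, 0.021 and 0.10 with array weights for progestin against vehicle, progestin plus doxycycline against progestin and progestin plus doxycycline against vehicle, and CERS5 at 0.0022 with quantile normalization.

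Leaving out 1 array gave, for progestin against vehicle, -0.17 to 0.088 for SPHK1 and -0.11 to 0.054 for CERS5. For progestin plus doxycycline against progestin it gave -0.15 to 0.11 for SPHK1, -0.052 to 0.014 for CERS2, -0.23 to 0.033 for CERS4 and -0.13 to 0.040 for CERS5. For progestin plus doxycycline against vehicle it gave -0.10 to 0.019 for SGPP1 and -0.46 to -0.30 for CERS4. The sign or the call changed in each of these.

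Array weights called 9581 probe sets (4724 higher) for progestin against vehicle, against 6179 (2847), with 32 pathway genes (14 lower), and 4319 lower probe sets for progestin plus doxycycline against vehicle, against 2664. For progestin plus doxycycline against progestin, 4 probe sets (2 higher, 2 lower) became 162 (143, 19) without the dimmest probe sets, 539 (486, 53) with a variance trend, 12 (9 higher) with array weights, 15 (11, 4) with 16 added, 459 (407, 52) with 64 added and 0 (0, 0) with only the 2 groups. With 1 array left out it was 0 to 2 (0 to 2 higher, 0 to 1 lower). Pathway genes called there, 0 in the main analysis, were 2 (2 higher) with a variance trend or 64 added. Pathway genes called lower for progestin plus doxycycline against vehicle were 7, and 4 to 8 with 1 array left out (4 without vehicle replicate 1 or 2). Of the 5 genes closest to SGPP2, 1 remained with 64 added or with Pearson correlation.

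Whether a replicate number marks a shared experiment is not stated. Same-numbered arrays had correlations of deviations from -0.26 to 0.40, positive in 3 of 9 pairs, so the numbers were not used as pairs. With a replicate block, 0 probe sets (0 higher, 0 lower) were called for progestin plus doxycycline against progestin and no member call changed. KDSR and PSAP for progestin against vehicle, ELF5 for progestin plus doxycycline against progestin, and SGMS1, B4GALT5 and PLPP2 for progestin plus doxycycline against vehicle lost their calls with the block.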
